A study of Mus musculus with 12 samples.

Results

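The genes described here are 7 autoantigens of myelin, astrocytes and the retina, measured in medullary thymic epithelial cells (mTECs) of mice. They are the myelin genes Mbp, Mag, Mobp and Mog, the astrocyte water channel gene Aqp4, and the photoreceptor genes Sag and Rbp3. They were taken by symbol, 7 of the 50600 gene identifiers in the tables, and each symbol matched 1 identifier. Polyadenylated RNA was sequenced from cells of the thymus of mice 6 to 8 weeks old, 6 libraries of MHC class II high cells (mTEC hi) and 6 of MHC class II low cells (mTEC lo). All mice are labelled as strain B6.B6CB-Psmb11tm1Smta, either Psmb11-/- (Psmb11-deficient) or Psmb11+/+ (WT). Psmb11 encodes the thymus-specific proteasome subunit beta5t, which is known from cortical thymic epithelial cells. Every field of the labels named the same genotype in 8 libraries. These are 2 Psmb11-deficient and 2 WT libraries of mTEC hi, and 2 Psmb11-deficient and 2 WT libraries of mTEC lo. In the other 4 libraries (2 of each cell type) the title named one genotype and the source name and strain the other, so these entered only the comparison of cell types. No label says whether the animals behind the libraries were separate, so the p-values speak to the variation among these libraries alone, part of which may be technical.

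mTECs transcribe many genes that otherwise belong to a single peripheral tissue, and present their products to developing T cells so that T cells reactive to them are deleted or diverted into regulatory T cells. The transcriptional regulator Aire drives many of these tissue-restricted genes, mainly in mTECs with high MHC class II, and other regulators such as Fezf2 act on further sets. The proteins encoded by Mbp, Mog, Mag and Mobp are targets in experimental autoimmune encephalomyelitis, a mouse model of multiple sclerosis. Antibodies to aquaporin 4 mark neuromyelitis optica in people, and the proteins of Sag (S-antigen, retinal arrestin) and Rbp3 (interphotoreceptor retinoid-binding protein) induce autoimmune uveitis in mice or other rodents.

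Depth ranged from 38791960 to 86793594 gene reads per mTEC hi library and from 57970614 to 68983619 per mTEC lo library. Levels of a gene between libraries are given in CPM (read counts relative to library size, scaled by TMM), and levels between genes in TPM, which also allow for transcript length. TPM rests on RSEM counts, whose totals were only 0.507 to 0.535 of the read totals. As a check of the genotype labels, Psmb11 had 0.836 and 1.29 CPM in Psmb11-deficient mTEC hi, against 10.2 and 7.45 CPM in WT mTEC hi. It had 1.66 and 1.197 CPM in Psmb11-deficient mTEC lo, against 12.3 and 7.75 CPM in WT mTEC lo. In the libraries with conflicting labels its level went with the title, at 1.11 and 1.25 CPM under a KO title and 8.04 and 7.09 CPM under a WT title. The cell type labels were checked with Cd80, a costimulatory ligand of mature mTECs, with an average of 144.8 ± 8.10 CPM in mTEC hi, against 8.03 ± 0.921 CPM in the 6 mTEC lo libraries (SD, n = 6 each). The epithelial adhesion gene Epcam averaged 612.6 ± 16.8 CPM in mTEC hi, against 856.4 ± 65.3 CPM in mTEC lo.

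RefSeq start sites on GRCm38.p6 were matched for 5 of the 7 members, without Mbp and Aqp4. The 250 bases before the start are shown for Rbp3 and Sag, the photoreceptor genes that were higher in mTEC hi, and for Mobp and Mag, myelin genes that went opposite ways. Both strands were searched for TAATCC (the core bound by the photoreceptor factors OTX2 and CRX), TATAAA (the TATA box) and ACAAAG (a SOX core), none of which overlap another. The capitals mark the matches, all of which lie on the opposite strand and so are printed as the reverse complement of the motif. The regions are chr14:33953753-33954002 (plus strand) for Rbp3, chr1:87803430-87803679 (plus strand) for Sag, chr9:120149492-120149741 (plus strand) for Mobp and chr7:30914864-30915113 (minus strand) for Mag.
Rbp3: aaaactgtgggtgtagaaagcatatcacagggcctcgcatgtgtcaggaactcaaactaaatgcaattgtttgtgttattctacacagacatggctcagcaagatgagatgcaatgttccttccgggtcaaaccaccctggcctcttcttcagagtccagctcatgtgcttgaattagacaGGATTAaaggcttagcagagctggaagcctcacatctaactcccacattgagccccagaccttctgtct
Sag: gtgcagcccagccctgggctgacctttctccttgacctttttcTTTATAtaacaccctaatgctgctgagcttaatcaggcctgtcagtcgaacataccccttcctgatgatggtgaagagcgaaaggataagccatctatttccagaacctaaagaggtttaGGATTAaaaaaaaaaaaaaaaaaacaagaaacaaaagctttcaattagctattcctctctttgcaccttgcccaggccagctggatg
Mobp: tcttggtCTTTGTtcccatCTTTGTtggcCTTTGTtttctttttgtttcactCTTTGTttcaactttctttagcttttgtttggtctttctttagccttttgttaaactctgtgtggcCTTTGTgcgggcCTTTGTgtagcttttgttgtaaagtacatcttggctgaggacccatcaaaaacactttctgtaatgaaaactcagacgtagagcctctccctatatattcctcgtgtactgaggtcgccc
Mag: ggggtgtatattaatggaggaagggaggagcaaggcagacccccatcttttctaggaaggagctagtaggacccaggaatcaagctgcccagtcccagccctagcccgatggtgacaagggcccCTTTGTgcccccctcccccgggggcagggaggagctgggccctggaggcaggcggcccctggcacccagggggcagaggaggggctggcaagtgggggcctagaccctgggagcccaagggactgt
Rbp3 and Sag each held 1 TAATCC, 69 bases before the start in Rbp3 and 87 bases before it in Sag. Of 27025 promoters of this length, 6.38% held that motif. Sag also held TATAAA 207 bases before the start, a motif present in 13% of promoters. Mobp held 6 matches to ACAAAG, between 243 and 120 bases before the start in a stretch rich in T, and Mag held 1, at 126 bases. Of all promoters 16.5% held at least 1 match, and how many held several was not counted. RefSeq lists 3 starts for Mag, of which the first is shown. Before the second start the match lay at 67 bases, and before the third there was none. The promoter of Mog held none of the motifs. A match describes the letters only, and no binding was measured.

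The members lie apart in the genome (GRCm38, GENCODE M21). Mbp (ENSMUSG00000041607.16) lies at chr18:82475146-82585637, Mag (ENSMUSG00000036634.15) at chr7:30899176-30914873, Mobp (ENSMUSG00000032517.16) at chr9:120149707-120181484 and Mog (ENSMUSG00000076439.12) at chr17:37010743-37023398. Aqp4 (ENSMUSG00000024411.9) lies at chr18:15389496-15410982, Rbp3 (ENSMUSG00000041534.8) at chr14:33954003-33964216 and Sag (ENSMUSG00000056055.13) at chr1:87803680-87845158. Mobp shares part of an exon with the noncoding gene Gm38642, and reads were counted without regard to strand, so reads from the shared stretch cannot be told apart.

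In mTEC hi against mTEC lo, Rbp3, Mobp, Sag and Mbp rose, Mag and Aqp4 fell, and Mog did not pass the test. All 7 members passed the filter on low counts, but Rbp3, Mobp and Mog did so through their mTEC hi reads alone. Of the 7 members, 4 were called higher and 2 lower at an adjusted p under 0.05 (edgeR quasi-likelihood test, Benjamini-Hochberg adjustment over 26372 genes). Among all genes tested, 81.2% were called, 45.3% as higher and 35.9% as lower, so a call alone does not set these members apart. The median log2 fold change was 0.82 over the members (also with Rbp3 at its lower bound) and 0.16 over all genes tested. The median of the members is the value of Mog alone, which has few reads and did not pass the test. The calls described differences of very unequal size, and the members are taken in turn by tissue. These are bulk libraries, in which fewer cells of a type and less RNA per cell cannot be told apart.

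**Figure D1:**
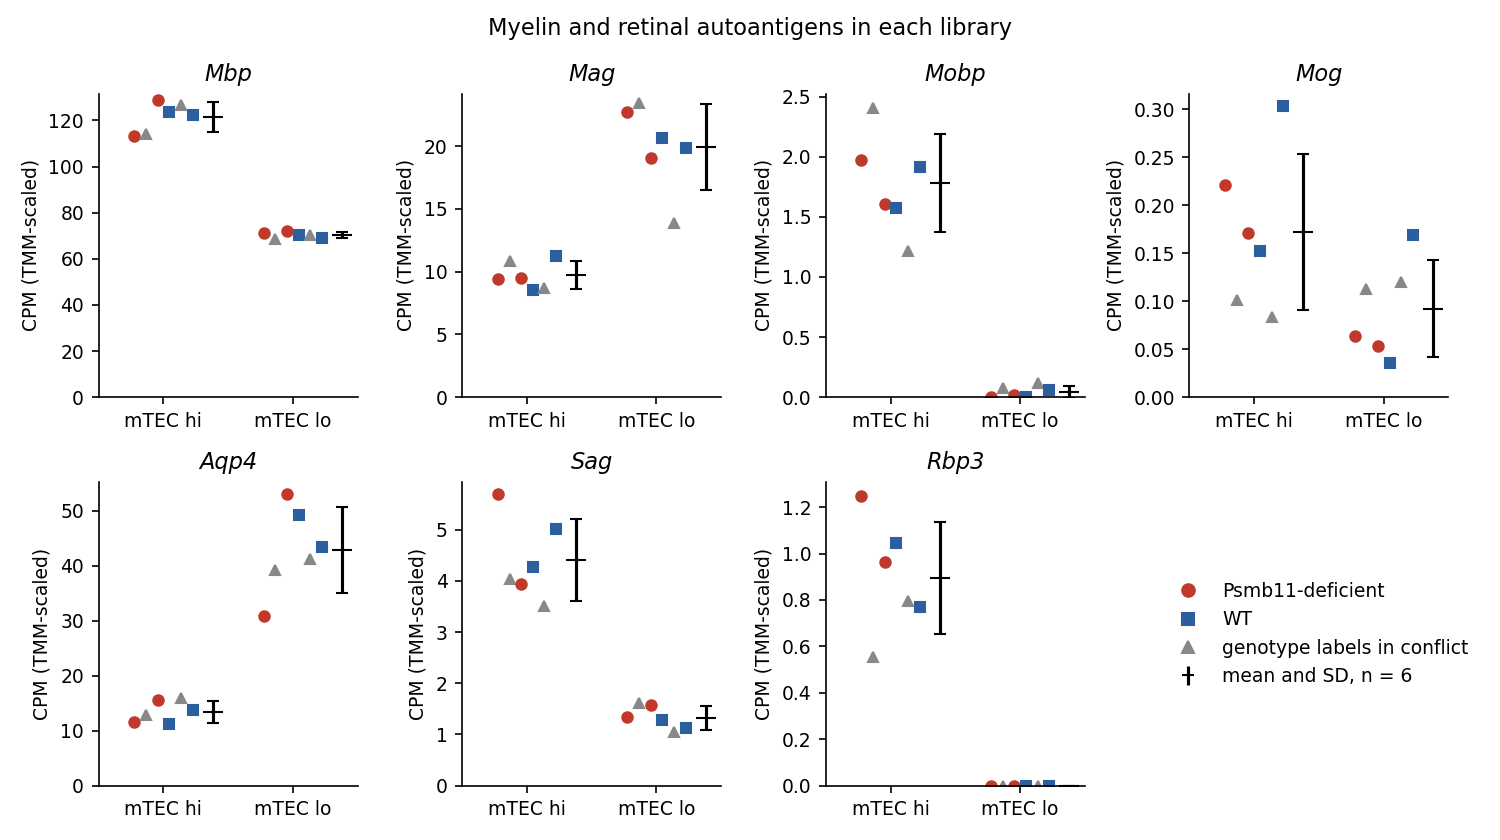
Level of each autoantigen in CPM (TMM-scaled) in each library, with mTEC hi left and mTEC lo right, a marker for each genotype class and the mean and SD of 6 libraries beside the points. All mTEC hi libraries lie above all mTEC lo libraries for Mbp, Mobp, Sag and Rbp3 and below them for Mag and Aqp4, while the points of Mog overlap.

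Mbp encodes myelin basic protein, which binds the cytoplasmic faces of the myelin membrane together. With all transcripts of its locus counted together, it was the most abundant member in TPM in both cell types. In mTEC lo most of this was the longest transcript, described below, and all others together lay between 1.34 and 3.74 TPM. The lowest mTEC lo values were higher for Mag (6.96 TPM) and Aqp4 (8.19 TPM). The CPM of Mbp had a lowest value of 113.4, a median of 123.1 and a highest of 128.7 in mTEC hi, against 68.8, 70.5 and 71.9 in mTEC lo. All 6 mTEC hi libraries lay above all mTEC lo libraries, and the mTEC lo libraries differed by a coefficient of variation of 1.73%, where counting alone gives 1.59%. The log2 fold change was 0.79 (SE 0.045, adjusted p = 1.94e-11). In mTEC hi the lowest values, 113.4 and 114.2 CPM, were in the libraries whose titles carry the number 1, which also had the highest summed level of 14 thymocyte genes there (322.7 and 243 CPM). The part of thymocyte RNA in the level of Mbp was not tested.

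The estimated mean length of Mbp transcripts also differed between the cell types. The Mbp locus makes the classic myelin basic proteins from a downstream start and the Golli proteins, which are found in lymphoid tissue as well as in brain, from an upstream start. The RSEM mean transcript length of Mbp was 3799 to 3945 bases in mTEC hi, against 4387 to 4504 bases in mTEC lo. The ranges did not overlap, the means differed by -599.6 bases, and an exact two-sided permutation test gave p = 0.002165, the smallest that 6 against 6 libraries allow. Of 16 annotated transcripts, all of them in the deposited tables, the longest has 4797 bases (GENCODE M21). It runs from the upstream start at 82475146 to 82558703 on chromosome 18, and the next longest has 2492 bases. A mean above 2492 bases therefore bounds the share of the longest transcript from below, and the shortest transcript, of 354 bases, bounds it from above. The longest transcript made up at least 56.7% and at most 80.8% of Mbp molecules in any mTEC hi library, against at least 82.2% and at most 93.4% in any mTEC lo library.

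In TPM, all other Mbp transcripts together lay between 10.4 and 23.2 TPM over the mTEC hi libraries, against 1.34 to 3.74 TPM over the mTEC lo libraries. The longest transcript alone lay between 28.3 and 43.8 TPM in mTEC hi, against 16.6 to 21.1 TPM in mTEC lo. Both ranges were thus higher in mTEC hi in every library under every split that the mean length allows. Of the 16 transcripts, 4 start at the upstream site (82475146 to 82475370) and 12 start from 82554470 onward, and the mean length does not separate the shorter ones among themselves. These bounds rest on RSEM's estimates and on GENCODE lengths, which can differ somewhat from the authors' (for Rbp3, with 1 transcript, 5295 bases in GENCODE against 5276 in the deposited tables).

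**Figure D2:**
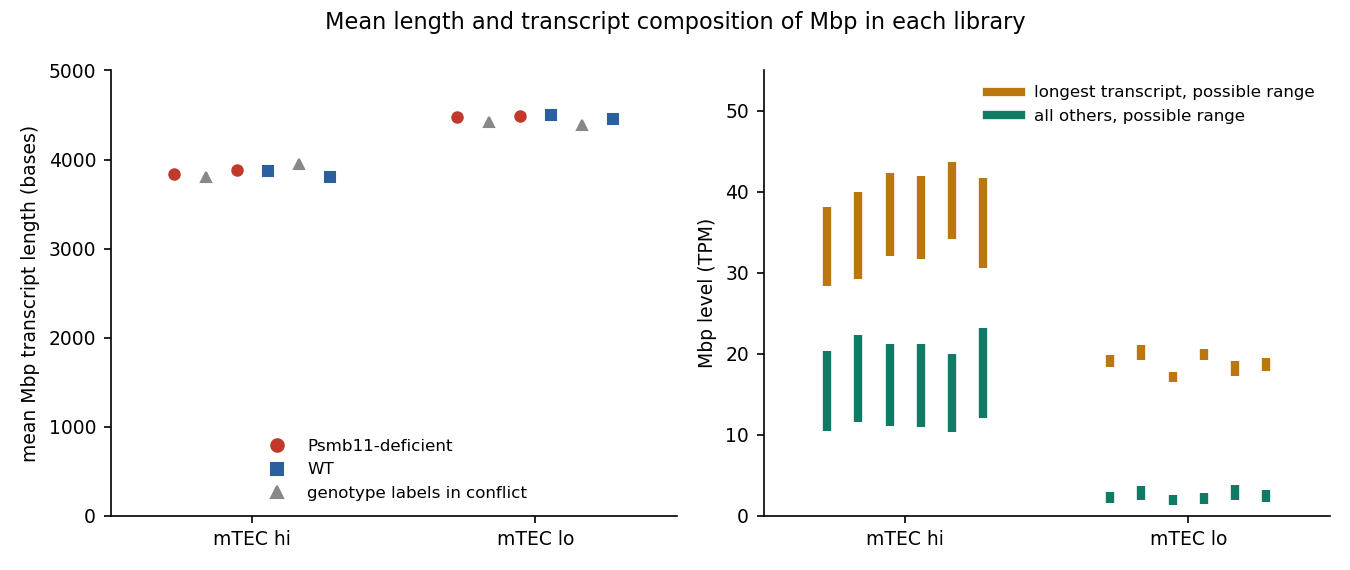
Left, mean Mbp transcript length in bases per library as estimated by RSEM. Right, the range of TPM that the mean length allows for the longest transcript and for all others together; each bar is 1 library, with mTEC hi left and mTEC lo right. The bars of the other transcripts lie between 10.4 and 23.2 TPM in mTEC hi and between 1.34 and 3.74 TPM in mTEC lo.

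Mag encodes myelin-associated glycoprotein, an adhesion molecule of the myelin layer next to the axon. Its CPM had a lowest value of 8.52, a median of 9.46 and a highest of 11.3 in mTEC hi, against 13.9, 20.3 and 23.5 in mTEC lo. The groups did not overlap, with all mTEC hi libraries below all mTEC lo libraries. Mag fell by 1.04 on the log2 scale in mTEC hi (SE 0.114, adjusted p = 1.59e-07).

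Mobp encodes myelin-associated oligodendrocyte basic protein, a small protein of compact myelin in the central nervous system. It had 75 to 143 reads per mTEC hi library, against 0 to 7 per mTEC lo library, where 2 libraries had none and all 6 together had 15. In CPM the lowest, median and highest values were 1.21, 1.76 and 2.41 in mTEC hi, against 0, 0.0369 and 0.1196 in mTEC lo. The groups lay far apart, and the log2 fold change was 5.30 (SE 0.435, adjusted p = 3.45e-09). Mobp passed the filter on low counts through its mTEC hi reads alone.

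Mog encodes myelin oligodendrocyte glycoprotein, which sits on the outermost surface of the myelin sheath. It was close to the limit of detection, with 6 to 14 reads per mTEC hi library and 2 to 9 reads per mTEC lo library. Its CPM had a lowest value of 0.0836, a median of 0.162 and a highest of 0.303 in mTEC hi, against 0.0359, 0.0880 and 0.169 in mTEC lo. The groups overlapped, and the log2 fold change of 0.82 did not pass the test (SE 0.487, adjusted p = 0.129). It passed when scaled by library size alone (1.14, adjusted p = 0.0417) and over the 8 libraries with undisputed genotype (1.43, adjusted p = 0.0374).

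Aqp4 encodes the water channel of astrocyte end-feet, which is also present in several epithelia. Its CPM had a lowest value of 11.1, a median of 13.3 and a highest of 15.9 in mTEC hi, against 30.8, 42.3 and 53.1 in mTEC lo. The groups did not overlap, and Aqp4 fell by 1.67 on the log2 scale in mTEC hi (SE 0.121, adjusted p = 5.99e-10). Its coefficient of variation in mTEC lo was 18.3%, close to the 17.1% of Mag and the 17.4% of Sag there. The deposited tables list 1 of the 11 transcripts of Aqp4 in GENCODE M21, and reads outside it may not have been counted.

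Sag encodes the arrestin of photoreceptors, which ends the signal of light-activated rhodopsin. It had 184 to 364 reads per mTEC hi library and 60 to 89 per mTEC lo library. Its CPM had a lowest value of 3.50, a median of 4.15 and a highest of 5.70 in mTEC hi, against 1.04, 1.31 and 1.62 in mTEC lo. The groups did not overlap, and the log2 fold change was 1.73 (SE 0.154, adjusted p = 1.12e-08).

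Rbp3 encodes the protein that carries retinoids between photoreceptors and the retinal pigment epithelium. It had 33 to 89 reads in each mTEC hi library (355 in all), whereas no mTEC lo library had a read. Its CPM had a lowest value of 0.555, a median of 0.879 and a highest of 1.25 in mTEC hi, against a limit of 0.00880 CPM that 3 reads over all mTEC lo libraries would give. Against that limit Rbp3 was higher in mTEC hi by a factor of at least 101.8. The edgeR test of its reads against none gave an adjusted p of 2.67e-08, which is not a test of that factor. Rbp3 passed the filter on low counts through its mTEC hi reads alone. At this depth a level under the limit could not be detected in mTEC lo.

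The order of the members per transcript length differed between the cell types. In mTEC hi, Mbp had 52.4 ± 2.06 TPM, followed by Mag at 6.99 ± 0.815, Aqp4 at 4.40 ± 0.705, Sag at 3.42 ± 0.680, Mobp at 1.34 ± 0.621, Rbp3 at 0.293 ± 0.104 and Mog at 0.158 ± 0.116 TPM (SD, n = 6). In mTEC lo, Mbp had 21.3 ± 1.28 TPM, followed by Mag at 11.6 ± 2.76, Aqp4 at 11.2 ± 1.89, Sag at 0.755 ± 0.115, Mog at 0.080 ± 0.0883 and Mobp at 0.025 ± 0.0321 TPM, with Rbp3 listed at 0. The ranges of Aqp4 and Sag and of Rbp3 and Mog overlapped in mTEC hi, and those of Mag and Aqp4, of Mog and Mobp and of Mobp and Rbp3 overlapped in mTEC lo. Mog was listed at 0 TPM in some libraries that had reads, such as Psmb11-deficient mTEC lo replicate 1 with 4 reads. With all its transcripts counted together, Mbp made up 75.9% of the members' summed TPM in mTEC hi and 47.3% in mTEC lo. Its mean TPM lay above that of 85.8% of 21764 protein-coding genes in mTEC hi and of 70.2% in mTEC lo, whereas Mog lay above 11.9% in mTEC hi and 22.6% in mTEC lo.

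The differences between mTEC hi and mTEC lo were also present within each genotype. Over the 8 libraries with undisputed genotype, 4 members were called higher and 2 lower in mTEC hi in the Psmb11-deficient libraries, where 68.1% of 26642 genes tested were called (39.4% higher, 28.7% lower). The count was 4 higher and 2 lower in the WT libraries, where 67% of genes were called (38.4% higher, 28.6% lower). The log2 fold changes, mTEC hi over mTEC lo, were 0.79 in Psmb11-deficient and 0.84 in WT libraries for Mbp, and -1.11 in Psmb11-deficient and -1.03 in WT libraries for Mag. They were -1.60 in Psmb11-deficient and -1.89 in WT libraries for Aqp4, and 1.76 in Psmb11-deficient and 1.96 in WT libraries for Sag. Mobp had 125 and 75 reads in Psmb11-deficient mTEC hi, against 0 and 1 in Psmb11-deficient mTEC lo, and 134 and 82 reads in WT mTEC hi, against 0 and 3 in WT mTEC lo. The test of whether the change with genotype differed between the cell types (the interaction) called no member. The adjusted p was 0.9998 for each member with reads in mTEC lo. For Rbp3, without a read in mTEC lo, the interaction cannot be estimated. No gene was called in that test (0% of 26642, while 1174 genes, 4.41%, had an unadjusted p under 0.05), and DESeq2 called 9 genes.

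Loss of Psmb11, the comparison for which the series was made, moved no member past the test in either cell type (edgeR quasi-likelihood test, adjusted p = 1 for all 7 in mTEC hi and 0.742 or higher in mTEC lo). Rbp3, without a read in mTEC lo, could not be compared there. Among 26642 genes tested, 0.00375% (1 gene, Psmb11) were called in mTEC hi, while 0.015% (4 genes) were called in mTEC lo. Before adjustment, 918 genes (3.45%) in mTEC hi had a p under 0.05, as did 3010 (11.3%) in mTEC lo. In mTEC hi DESeq2 called 3 genes, in mTEC lo it called 158, and none of them was a member. With each library left out, 0 to 2 genes were called in mTEC hi and 1 to 323 in mTEC lo, again with no member among them, the 323 without Psmb11-deficient replicate 2 of mTEC lo.

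Between the genotypes, the better measured members had the smaller standard errors. Mbp had 113.4 and 128.7 CPM in Psmb11-deficient mTEC hi, against 123.7 and 122.5 CPM in WT mTEC hi (log2 fold change -0.02, SE 0.0854). It had 71.0 and 71.9 CPM in Psmb11-deficient mTEC lo, against 70.5 and 68.9 CPM in WT mTEC lo (0.03, SE 0.0861). The genotypes overlapped in mTEC hi but not in mTEC lo, where the Psmb11-deficient library of title number 2 was 1.02 times the WT library of that number.

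Mag had 9.40 and 9.51 CPM in Psmb11-deficient mTEC hi, against 8.52 and 11.3 CPM in WT mTEC hi (log2 fold change -0.05, SE 0.153). It had 22.7 and 19.1 CPM in Psmb11-deficient mTEC lo, against 20.7 and 19.9 CPM in WT mTEC lo (0.04, SE 0.147). The genotypes overlapped in both cell types.

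Aqp4 had 11.6 and 15.6 CPM in Psmb11-deficient mTEC hi, against 11.1 and 13.7 CPM in WT mTEC hi (log2 fold change 0.13, SE 0.217). It had 30.8 and 53.1 CPM in Psmb11-deficient mTEC lo, against 49.1 and 43.4 CPM in WT mTEC lo (-0.15, SE 0.206). The Psmb11-deficient libraries enclosed both WT libraries in mTEC lo.

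Sag had 5.70 and 3.94 CPM in Psmb11-deficient mTEC hi, against 4.27 and 5.01 CPM in WT mTEC hi (log2 fold change 0.07, SE 0.247). It had 1.34 and 1.57 CPM in Psmb11-deficient mTEC lo, against 1.27 and 1.12 CPM in WT mTEC lo (0.27, SE 0.277, adjusted p = 0.752). Sag and Mbp in mTEC lo were the only member comparisons between the genotypes whose groups did not overlap.

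Rbp3 had 1.25 and 0.964 CPM in Psmb11-deficient mTEC hi, against 1.04 and 0.769 CPM in WT mTEC hi (log2 fold change 0.29, SE 0.473). Mobp had 1.97 and 1.61 CPM in Psmb11-deficient mTEC hi, against 1.57 and 1.91 CPM in WT mTEC hi (0.06, SE 0.432). Mog had 0.221 and 0.171 CPM in Psmb11-deficient mTEC hi, against 0.152 and 0.303 CPM in WT mTEC hi (-0.15, SE 0.818). In mTEC lo, Mobp had 0 and 0.0176 CPM in Psmb11-deficient libraries, against 0 and 0.0562 CPM in WT libraries (-1.51, SE 1.49, adjusted p = 0.742). Mog had 0.0632 and 0.0528 CPM in Psmb11-deficient mTEC lo, against 0.0359 and 0.169 CPM in WT mTEC lo (-0.79, SE 0.983, adjusted p = 0.812). Without WT mTEC lo replicate 3 these became 2.29 for Mobp and 0.66 for Mog. Rbp3 had no read in mTEC lo of either genotype. All of these overlapped, and the standard errors show that a change of moderate size in these low genes would not have been detectable. 

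The thymocyte list of 14 genes had summed levels of 192.9 and 322.7 CPM in Psmb11-deficient mTEC hi, against 175.6 and 179.7 CPM in WT mTEC hi. Its sums were 91.2 and 134.8 CPM in Psmb11-deficient mTEC lo, against 56.3 and 62.7 CPM in WT mTEC lo, and none of its genes was called. The Psmb11-deficient libraries carry the title numbers 1 and 2 and the WT libraries 2 and 3, so genotype and number cannot be fully told apart. Libraries numbered 1 had the highest sums under both titled genotypes, and those titled WT had 243 CPM in mTEC hi and, for mTEC lo, 99.0 CPM. Within number 2 the sums were 192.9 CPM in Psmb11-deficient and 179.7 CPM in WT mTEC hi, and 91.2 CPM in Psmb11-deficient and 62.7 CPM in WT mTEC lo. The part of thymocyte RNA in the members' values was not tested.

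**Figure D3:**
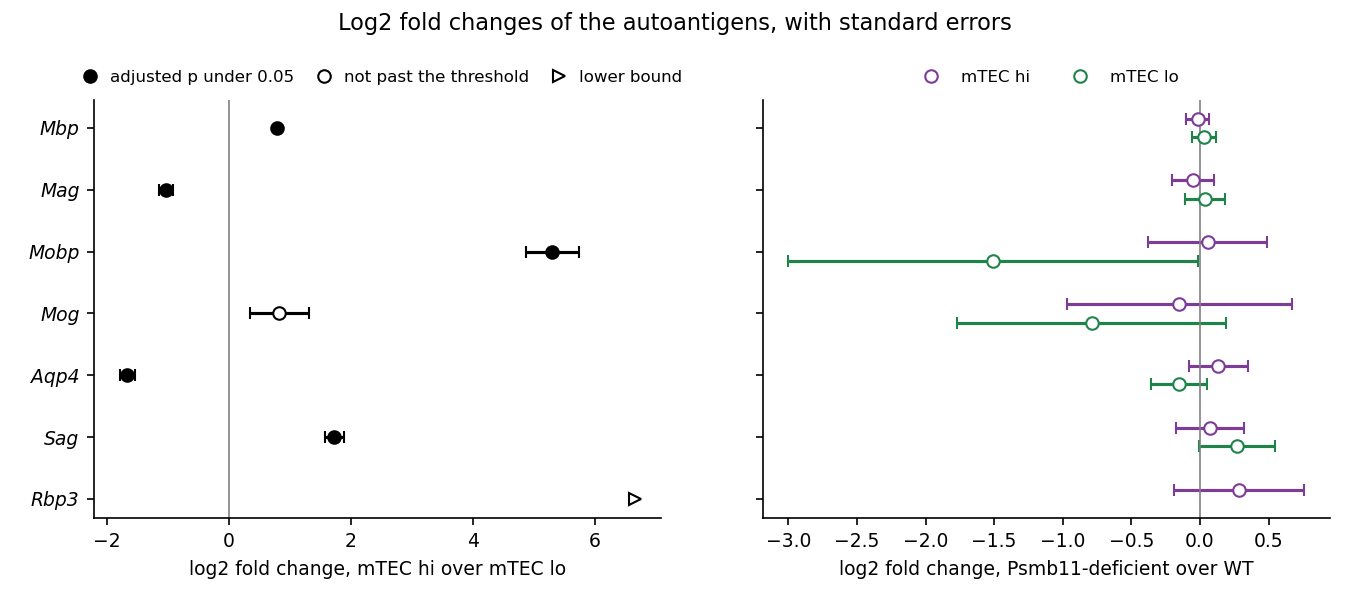
Log2 fold change of each member with its standard error, mTEC hi over mTEC lo on the left and Psmb11-deficient over WT within each cell type on the right, where no member passed the threshold. On the left 4 members lie above 0 and 2 below it past the threshold, Rbp3 is drawn at its lower bound of 6.67, and on the right Rbp3 has no value in mTEC lo.

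Other genes of myelin and its cells were read from lists. Counts cover each whole list, while the genes named from it are those of largest change and some chosen after their values were seen. The counts are to be read beside the shares over all genes tested, of which 45.3% were called higher and 35.9% lower. Of 13 other myelin genes, 11 were called higher and 2 lower in mTEC hi, with a median log2 fold change of 2.31. The largest increases were in Opalin, a membrane protein of oligodendrocytes, and Ermn, a cytoskeletal protein of late oligodendrocytes. Opalin had 101 to 244 reads per mTEC hi library and 3 reads in all 6 mTEC lo libraries together. It thus passed the filter on low counts through mTEC hi alone. The same holds for other listed genes with few mTEC lo reads, among them Olig2, Zfp488, Crx and Gngt1. Ermn averaged 4.64 ± 0.604 CPM in mTEC hi, against 0.139 ± 0.0519 CPM in mTEC lo, a log2 fold change of 5.03 (SE 0.210). The genes called lower were Cldn11, a tight junction protein of central myelin, which fell by 2.56 on the log2 scale (SE 0.123), and Tspan2, which fell by 0.57 (SE 0.0554). Summed over the list, the level was 345.1 ± 18.5 CPM in mTEC hi, against 127.4 ± 6.10 CPM in mTEC lo.

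Of 7 oligodendrocyte regulators, 6 were called higher and none lower. Olig2, a lineage transcription factor, averaged 3.25 ± 0.456 CPM in mTEC hi, against 0.0230 ± 0.0200 CPM in mTEC lo (log2 fold change 7.0, SE 0.319). Zfp488, a cofactor of oligodendrocyte differentiation, averaged 0.817 ± 0.181 CPM in mTEC hi, against 0.0151 ± 0.0179 CPM in mTEC lo (5.61, SE 0.511). The summed level of the list was 71.7 to 79.6 CPM in mTEC hi, against 9.44 to 12.3 CPM in mTEC lo.

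Of 7 genes of peripheral myelin, 4 were called higher and 3 lower, beside 45.3% higher and 35.9% lower over all genes tested. Pmp2, a lipid-binding protein of peripheral myelin, had a log2 fold change of 4.62 (SE 0.408), but its RSEM counts averaged 894.7 in mTEC hi and 29.5 in mTEC lo, against mean read counts of 144.2 in mTEC hi and 4.67 in mTEC lo, so its level is uncertain. Pmp22, a membrane protein of compact peripheral myelin, averaged 3.75 ± 0.466 CPM in mTEC hi, against 33.3 ± 4.83 CPM in mTEC lo, and fell by 3.16 on the log2 scale (SE 0.0999). Ngfr, the low-affinity neurotrophin receptor, averaged 22.2 ± 1.61 CPM in mTEC hi, against 83.6 ± 10.8 CPM in mTEC lo, and fell by 1.91 (SE 0.0685). The third lower call, Prx, a scaffold protein of Schwann cells, had a log2 fold change of -0.31, which crossed 0 (0.0066) when scaled by library size alone. The summed level of the list was lower in mTEC hi, at 66.3 ± 3.06 CPM, against 133.5 ± 13.5 CPM in mTEC lo.

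Of 8 astrocyte genes, 7 were called higher and 1 lower, the opposite direction to Aqp4 for most of them. S100b, a calcium-binding protein, averaged 3.53 ± 0.232 CPM in mTEC hi, against 0.160 ± 0.0298 CPM in mTEC lo (log2 fold change 4.46, SE 0.180). Slc1a2, the main astrocyte glutamate transporter, averaged 23.7 ± 2.11 CPM in mTEC hi, against 1.14 ± 0.236 CPM in mTEC lo (4.38, SE 0.122). The gene called lower was Aldh1l1, a folate enzyme of astrocytes, which fell by 1.05 (SE 0.0681). The summed level of the list was 484.3 to 509.5 CPM in mTEC hi, against 250.7 to 290.1 CPM in mTEC lo.

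Of 12 further antigens of autoimmune brain and nerve disease, 9 were called higher and 3 lower (all genes tested, 45.3% higher and 35.9% lower). Iglon5, a neuronal adhesion protein, had a log2 fold change of 7.33 (SE 0.252), and Cntn1, an adhesion protein of the node of Ranvier, one of 4.63 (SE 0.112). Dpp6, an auxiliary subunit of neuronal potassium channels and the gene of the list with the highest CPM in mTEC lo, averaged 17.8 ± 1.67 CPM in mTEC hi, against 289.4 ± 40.9 CPM in mTEC lo (log2 fold change -4.02, SE 0.0925). Gabbr1, a GABA-B receptor subunit, fell by 1.65 (SE 0.0778), and Cntn2, an axonal adhesion protein, fell by 1.15 (SE 0.166). The summed levels of the list overlapped, with 450.4 to 513 CPM in mTEC hi against 436 to 550.1 CPM in mTEC lo.

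Among 25 other photoreceptor genes, 21 were called higher and 1 lower in mTEC hi, with a median log2 fold change of 3.14 (the same with a gene at 0 placed at its bound). Gngt1, the gamma subunit of rod transducin, had 21 to 70 reads per mTEC hi library and none in any mTEC lo library, at least 64.7-fold higher. Grk1, rhodopsin kinase, averaged 14.5 ± 1.76 CPM in mTEC hi, against 0.0735 ± 0.0380 CPM in mTEC lo (log2 fold change 7.60, SE 0.195). Gngt1 and Rbp3 were thus alike in having no read in mTEC lo. The summed level of the list was 138.7 to 148.9 CPM in mTEC hi, against 61.4 to 67.2 CPM in mTEC lo.

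Of 6 genes of the retinal pigment epithelium, 4 were called higher and 2 lower (all genes tested, 45.3% higher and 35.9% lower). Lrat, which esterifies retinol, averaged 42.4 ± 1.79 CPM in mTEC hi, against 0.393 ± 0.171 CPM in mTEC lo (log2 fold change 6.75, SE 0.145). Rlbp1, a carrier of retinal, averaged 9.21 ± 1.17 CPM in mTEC hi, against 0.0620 ± 0.0510 CPM in mTEC lo (7.18, SE 0.246). The 2 lower calls were lost when scaled by library size alone.

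Of 8 retinal transcription factors, 6 were called higher and none lower. Crx, the photoreceptor homeodomain factor whose motif core was searched in the promoters, had 81 to 257 reads per mTEC hi library and 3 reads in all mTEC lo libraries together. Between the genotypes no gene of the myelin, astrocyte, neural or retinal lists was called in either cell type.

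**Figure D4:**
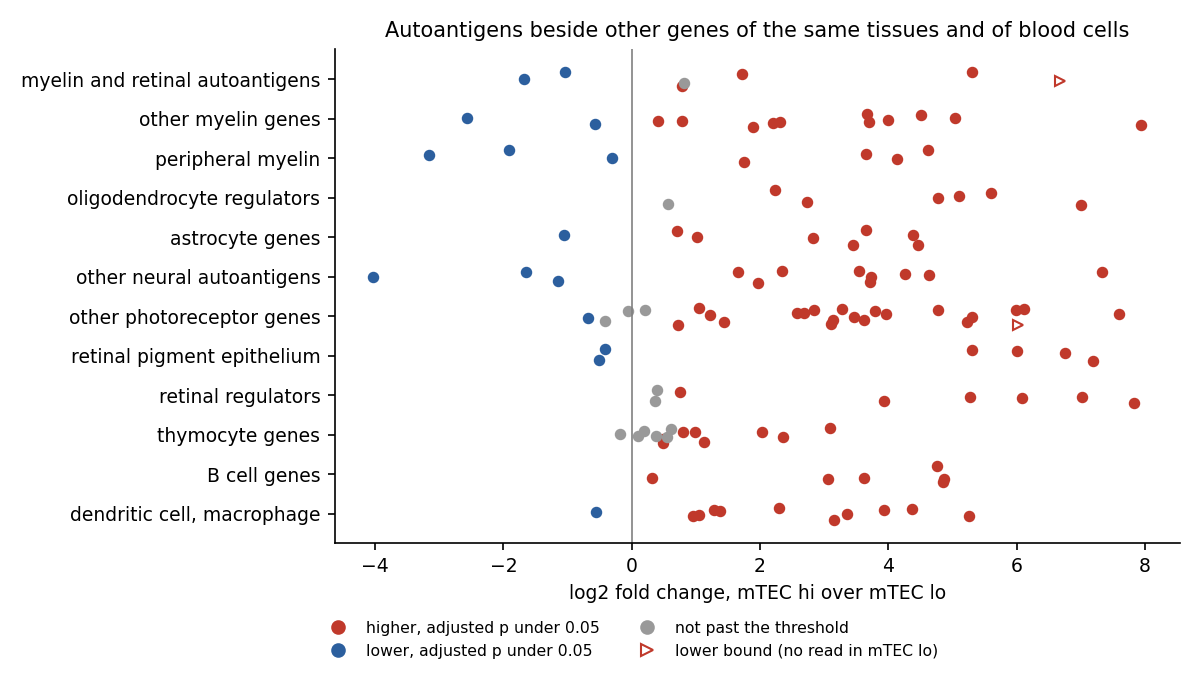
Log2 fold change, mTEC hi over mTEC lo, of the 7 members and of every gene on 11 other lists, each point a gene, coloured by call, with genes that have no read in mTEC lo drawn at their lower bound. The members spread from -1.67 (Aqp4) to at least 6.67 (Rbp3), and most genes of the other myelin, photoreceptor and regulator lists lie to the right of 0.

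The regulators of antigen display changed in both directions. Aire averaged 1956 ± 183.4 CPM in mTEC hi, against 17.7 ± 5.21 CPM in mTEC lo (log2 fold change 6.81, SE 0.161). Fezf2 averaged 563.5 ± 9.44 CPM in mTEC hi, against 207.3 ± 19.0 CPM in mTEC lo (1.44, SE 0.0569). Sirt1, a deacetylase that acts on Aire, had a log2 fold change of 2.89 (SE 0.0656), whereas Deaf1, another regulator of peripheral antigens, fell by 1.41 (SE 0.0570). Chd4, a chromatin remodeller that works with Fezf2, fell by 0.44 (SE 0.0730), a call that was lost when scaled by library size alone (-0.12, the same sign). None of these was called between the genotypes.

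Genes of blood cells also differed between the sorted populations. The 6 B cell genes were called higher in mTEC hi, led by Blk (log2 fold change 4.87, SE 0.165) and Ms4a1 (4.85, SE 0.325), with summed levels of 68.1 to 73.0 CPM in mTEC hi, against 11.4 to 17.8 CPM in mTEC lo. Of 11 dendritic cell and macrophage genes, 10 were called higher and 1 lower, with Flt3 at 5.25 (SE 0.206) and Adgre1 at 4.37 (SE 0.187). The gene called lower was Ptprc (-0.55, SE 0.176), a call that was lost when scaled by library size alone (-0.23). The sums of this list were 569.2 to 610.7 CPM in mTEC hi, against 103.1 to 115.5 CPM in mTEC lo. Of 14 thymocyte genes, 8 were called higher, with Ptcra at 3.09 (SE 0.335) and Tcf7 at 2.36 (SE 0.107). The other 6 were not called, namely Cd3e, Cd8a, Cd8b1, Lck, Rag2 and Themis, the last at -0.19 (SE 0.200). When scaled by library size alone, Cd3e, Cd8a and Lck were called higher, and with RLE scaling Cd8a was. The sums of the thymocyte list were 175.6 to 322.7 CPM in mTEC hi, against 56.3 to 134.8 CPM in mTEC lo. The 7 erythroid genes were called higher, with Alas2 at 3.39 (SE 0.111), and sums of 20.7 to 25.1 CPM in mTEC hi against 1.60 to 5.42 CPM in mTEC lo. Between the genotypes, 1 erythroid gene was called higher in Psmb11-deficient mTEC lo (edgeR quasi-likelihood test, adjusted p = 0.0208). The erythroid sums there were 3.52 and 5.42 CPM in Psmb11-deficient libraries, against 1.60 and 2.55 CPM in WT libraries. None of the markers on these lists was at 0 in either cell type. Their part in the members' levels was not tested. Of 8 mTEC genes, Cd80 and Epcam among them, 4 were called higher and 3 lower (all genes tested, 45.3% higher and 35.9% lower). The largest rises were in Cd86, a costimulatory ligand, at 4.95 (SE 0.103) and Cd80 at 4.18 (SE 0.0721). Those called lower were Krt14 at -2.94 (SE 0.0650), Krt5 at -2.69 (SE 0.0786) and Epcam at -0.48 (SE 0.0481). The MHC class II gene H2-Aa averaged 5385 ± 178.3 CPM in mTEC hi, against 2142 ± 161.8 CPM in mTEC lo (1.33, SE 0.0538).

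The genes whose levels followed each member most closely over the 12 libraries were found by Pearson's r on log2 CPM among about 16129 protein-coding genes. These points fall into the 2 cell types, so r mostly describes that difference. Rbp3 was nearest to the agouti gene a (r = 0.999), Pfpl and Nlrp4a (0.996 each), which like it had a mean of 0 CPM in mTEC lo. Mobp was near to Tgm6 (0.997) and Pln (0.993), and Mbp was nearest to Alas1 (0.997), Cyp2a5 (0.997) and Tmprss2 (0.996). Sag was nearest to Unc13d (0.989), Ubl4b (0.987) and Fads3 (0.986). Of the members that fell, Aqp4 was nearest to Myof (0.994), Ptpra (0.993) and Add1 (0.992), and Mag to Car7 (0.984), Pnpla3 (0.982) and Coprs (0.981). Above an r of 0.95 lay 3912 genes for Rbp3, 3783 for Mbp, 2466 for Aqp4, 2439 for Sag, 2082 for Mobp, 194 for Mag and 0 for Mog. Mog, whose few reads limit any such measure, was nearest to Zfp296 (0.858), H2-M3 (0.806) and Phf11b (0.797).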

How the data were processed

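Per the labels' protocols, TRIzol and RNeasy columns were used for RNA and TruSeq RNA reagents for the libraries. For each library the authors deposited read counts per gene, whole numbers without normalisation, in a column that ignores strand and 1 column per strand. The authors also deposited RSEM estimated counts (expected counts), TPM and an abundance-weighted mean transcript length. STAR 2.5.1b, RSEM 1.2.28, CASAVA 1.8.2 and the build name GRCh38 stand in the submitters' processing notes, although the identifiers are those of mouse, and the annotation release, in the sources used here, is not given. The strand 1 column held 50.4% to 50.8% of stranded reads, so the column ignoring strand was used. Rows that name no gene (21.5% to 27.8% of reads) were left out, and RSEM totals were 0.507 to 0.535 of the read totals. For the members, RSEM counts mostly lay near or below the reads of the strand 2 column. Mog in Psmb11-deficient mTEC lo replicate 1 had 4 strand 1 reads, 0 strand 2 reads and an RSEM count of 0. TPM and mean transcript lengths may thus rest on only part of the reads, which was not tested. Identifiers were matched by stable ID to GENCODE M21.

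After filterByExpr (count minimum 10, total minimum 15) and TMM scaling, counts were tested by the quasi-likelihood F test of edgeR 4.0.16 in R 4.3.3 (limma 3.58.1), with Benjamini-Hochberg adjustment and a threshold of 0.05. Cell types were compared over all 12 libraries, with a term for genotype class (8 residual degrees of freedom). The genotypes were compared in a model of 4 groups over 8 libraries (4 residual degrees of freedom). The standard error is the log2 fold change divided by the square root of F. For a gene without reads in a cell type, 3 reads over the group gave the limit. Alternatives were RLE and library size scaling, DESeq2 1.42.0, no filter, rounded RSEM counts, a replicate block, other genotype labels, fewer libraries and no genotype class. The fits were tested on simulated data.

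No pair of libraries agreed within sampling noise (lowest chi-square per gene 7.07 over 30 pairs). The members and the 15 other lists were chosen with earlier results of these data known. All members are named, all regulators, and from each other list the 2 called genes of largest change in mTEC hi against mTEC lo. Prx, Pmp22, Ngfr, Cldn11, Tspan2, Aldh1l1, Dpp6, Gabbr1, Cntn2, Epcam and the markers of title number 1 were added after their values were seen. The same holds for Ptprc, Krt5, Krt14, H2-Aa, the uncalled thymocyte genes and the erythroid sums by genotype. Some genes that these rules name are not reported here. For likeness, the 3 genes of highest r with a mean of at least 1 CPM in a cell type are named (prior count 2).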

Additional observations from a re-analysis of the deposited data

Results flagged for a closer look

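The TPM of Rbp3 in mTEC hi had 1 library far from the others. It was listed at 0.5 TPM in Psmb11-deficient replicate 1, and the next highest mTEC hi library had 0.28 TPM, a gap of 0.759 of the whole range. In CPM from the read counts the same library had 1.25 CPM, against 1.04 CPM in the next. It had 29 strand 1 and 50 strand 2 reads and an RSEM count of 47. In WT replicate 2 of mTEC hi these were 46, 43 and 32. The cause of the difference was not tested. In all, 28 groups of 6 values were examined in this way, and chance marks about 1 group in 20.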

How the results depend on the processing

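In mTEC hi against mTEC lo, the called members other than Rbp3 kept their direction and call under 8 other settings and with each of 12 libraries left out. Their log2 fold changes under the other settings were 0.79 to 1.11 (Mbp), -1.06 to -0.73 (Mag), 4.91 to 6.52 (Mobp), -1.74 to -1.35 (Aqp4) and 1.72 to 2.05 (Sag). Rbp3, without a read in mTEC lo, could not change direction under any of these. Mobp, with 15 reads over all mTEC lo libraries, had little room to do so. Of all calls, 55.8% were higher with TMM, 59.3% with RLE and 69.4% with library size alone. The median log2 fold change of all genes was 0.48 under library size alone and 0.16 with TMM. Mog became a call at 1.14 (library size alone, adjusted p = 0.0417) and 1.43 (8 libraries, adjusted p = 0.0374), and with each library left out it had 0.58 to 1.04 (adjusted p 0.0952 to 0.295). The ratio of means was 2.46 in TPM and 1.73 in CPM for Mbp, and 4.53 and 3.32 for Sag.

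No member was called between the genotypes under any setting, but counts over all genes moved. In mTEC hi, against 1 gene, there were 3 (DESeq2), 3 (RSEM), 42 (no filter), 0 (genotype from the source name) and 0 to 2 with a library left out (2 without Psmb11-deficient replicate 2, 0 without replicate 1 or WT replicate 2). In mTEC lo, against 4 genes, there were 158 (DESeq2), 660 (no filter), 45 (replicate block), 9 (library size), 2 (source name) and 1 to 323 with a library left out. There were 263 and 323 without Psmb11-deficient mTEC lo replicate 1 and 2, 18 and 22 without WT mTEC lo replicate 2 and 3, and 1 without WT mTEC hi replicate 2 or 3. For the interaction, against 0, there were 9 (DESeq2), 141 (no filter), 7 (replicate block), 2 (RSEM) and 0 to 49 with a library left out, 49 and 14 without Psmb11-deficient mTEC lo replicate 1 and 2 and 5 and 6 without WT mTEC lo replicate 2 and 3. The cause was not tested.

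Uncalled genotype values changed sign, among them those of Mobp (-1.51) and Mog (-0.79) in mTEC lo and of the interaction for Mobp (1.56), genes with few or no reads in mTEC lo. With genotype from the title, log2 fold changes in mTEC hi were 0.033 (Mbp), -0.30 (Mobp) and -0.0176 (Sag), in mTEC lo -0.20 (Mag), 0.0532 (Mobp) and -0.0233 (Sag), and for the interaction 0.0558 (Mag), -0.35 (Mobp) and 0.0057 (Sag). From the source name, those in mTEC hi were -0.0309 (Aqp4) and 0.0725 (Mag). With RSEM counts they were -0.0657 (Mag) and -5e-04 (Mbp) in mTEC lo and 0.0181 (Sag) for the interaction. The replicate block gave 0.0153 (Mbp), 0.41 (Mog), -0.11 (Rbp3) and -0.0142 (Sag) in mTEC hi and 0.13 (Aqp4) in mTEC lo. With each library left out, values in mTEC hi ranged from -0.0884 to 0.34 (Aqp4), -0.24 to 0.16 (Mag), -0.11 to 0.0697 (Mbp), -0.10 to 0.20 (Mobp), -0.60 to 0.37 (Mog) and -0.23 to 0.31 (Sag). In mTEC lo they ranged from -0.60 to 0.19 (Aqp4), -0.091 to 0.16 (Mag), -3.79 to 2.29 (Mobp) and -1.51 to 0.66 (Mog). For the interaction they ranged from -0.0655 to 0.73 (Aqp4), -0.28 to 0.12 (Mag), -0.14 to 0.0414 (Mbp), -2.24 to 3.85 (Mobp), -0.82 to 1.36 (Mog) and -0.50 to 0.04 (Sag).

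Over all genes, deviations of libraries with the same number and titled genotype correlated at 0.00735 to 0.0939 between the cell types. Of 6 mTEC hi libraries, 3 correlated best with the mTEC lo library of the same number and titled genotype. The mTEC hi library of number 3 titled KO correlated best (0.0499) with the mTEC lo library of its number titled WT. Between titled genotypes, libraries of 1 number correlated at -0.023 to 0.0699. As none passed 0.1, the numbers were not taken as pairs, although the thymocyte sums were highest in number 1 in both cell types. Depth limits Mog, and Mobp and Rbp3 in mTEC lo.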
